A study of Mus musculus with 10 samples.

Results

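Tubulin isotypes are the products of the separate genes that encode alpha and beta tubulin. The genes described are 10 tubulin genes, namely the alpha tubulin genes Tuba1a, Tuba1b, Tuba1c and Tuba4a and the beta tubulin genes Tubb2a, Tubb2b, Tubb3, Tubb4b, Tubb5 and Tubb6. They are 10 of 60676 rows of a table of raw read counts, found by matching Ensembl identifiers to gene symbols, which 51884 rows have. The genes were selected on the counts of these same libraries, since the list was drawn up with results of these data known, so their levels and differences are given as descriptions. Whether a fit over all genes called them is stated, and nothing is read from it. The counts come from messenger RNA of 2 cultured mouse tumour lines. MC38 derives from a colon adenocarcinoma and B16 from a melanoma.

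All 10 libraries carry a knockdown of Sdc1, the gene of the cell surface proteoglycan syndecan-1, and all cells received interferon gamma at 10 ng/ml for 24 h. MC38 was sequenced with the knockdown alone, with the knockdown and a mutant form called c30, and with the knockdown and a mutant form called ect. B16 was sequenced with the knockdown alone and with the knockdown and the wild-type form of Sdc1. Each of the 5 groups has 2 libraries. No group without the knockdown or without interferon gamma was analysed here. What c30 and ect change in the protein, what drives the knockdown and the added forms, and whether each line is 1 clone are not given in the sources used here. The labels do not say whether the libraries of a group are separate cultures, so errors measure the spread between libraries, which may be technical.

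Alpha and beta tubulin form the dimers from which microtubules, the hollow filaments of the cytoskeleton and the mitotic spindle, are built. The dimers of different isotypes share most of their sequence and differ mainly in the acidic C-terminal tail, which lies on the outer surface of the microtubule and which many modifying enzymes and motor proteins recognise. Cells also adjust the stability of tubulin messenger RNA to the amount of free dimer, a process called tubulin autoregulation. Tuba1a is the alpha isotype known from developing neurons, Tuba1b and Tuba1c are expressed in many dividing cells, and Tuba4a is known from the adult brain and from platelets. Tubb5 is the beta isotype found in most dividing cells, Tubb4b is also found in cilia, Tubb2a and Tubb2b are abundant in brain, Tubb6 is expressed broadly at lower levels, and Tubb3 is used as a marker of neurons and is also found in many tumours.

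The ends of the coding sequences of beta genes are shown because they encode the C-terminal tails and because they show how far a read can tell the genes apart. They are the last 60 coding bases with the stop codon, 5′ to 3′, from GENCODE M21 transcripts of build GRCm38. Capitals mark bases that differ from Tubb5 in the alignment of both coding sequences or have no counterpart there.
Tubb5: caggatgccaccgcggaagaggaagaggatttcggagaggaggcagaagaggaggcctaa
Tubb2a: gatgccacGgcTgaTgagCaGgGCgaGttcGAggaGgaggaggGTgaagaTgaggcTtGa
Tubb2b: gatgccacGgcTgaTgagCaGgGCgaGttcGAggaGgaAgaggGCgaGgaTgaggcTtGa
Tubb3: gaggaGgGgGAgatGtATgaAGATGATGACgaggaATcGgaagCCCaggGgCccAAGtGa
Tubb4b: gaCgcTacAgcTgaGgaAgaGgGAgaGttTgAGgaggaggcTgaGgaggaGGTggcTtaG
Among these 5 sequences, that of Tubb3 differs most from Tubb5, with 29 bases in capitals, against 16 in Tubb2a, 18 in Tubb2b and 20 in Tubb4b.

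Over the whole coding sequence, Tuba1a was 98.3% identical to Tuba1b and 97.1% identical to Tuba1c, and Tuba1b was 97.9% identical to Tuba1c. Tubb2a was 96.5% identical to Tubb2b. All other pairs within the alpha or the beta family lay between 80.2% and 86.0%. Of the 100-base windows of the longest coding transcript, 65.1% in Tuba1a, 69.5% in Tuba1b and 53.4% in Tuba1c occurred base for base in a transcript of another annotated gene. The share was 36.9% in Tubb2a, 27.7% in Tubb2b and 29.2% in Tubb4b, whose partner was mostly the pseudogene Tubb4b-ps1. It was 0% in Tuba4a, Tubb3, Tubb5 and Tubb6. How the counting treated reads with several matches and how long the reads were are not given in the sources used here. The split of counts between Tuba1a, Tuba1b and Tuba1c, and between Tubb2a and Tubb2b, is therefore uncertain. So are the totals of genes with many shared windows, and their order and ratio against genes with none. The 9 annotated pseudogenes that share sequence with the Tuba1 genes together held 31.2 to 50.8 CPM (counts out of 1000000 counts in all), the 3 beside Tubb4b held 2.11 to 3.59 CPM, and Tubb2a-ps2 had no count.

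Total counts were 11349447 to 15041133 per library, and the 10 tubulin genes took 0.402% to 0.430% of them in MC38 and 0.303% to 0.380% in B16. Sdc1 stood at 24.5 and 29.99 CPM in the MC38 knockdown, at 97.0 and 99.5 CPM with c30 and at 22.4 and 25.2 CPM in the libraries labelled ect, which were not above the knockdown. In B16 it stood at 40.7 and 43.1 CPM in the knockdown and at 71.1 and 56.9 CPM with the wild-type form. Melanocyte markers summed to 13101 to 13890 CPM in B16 and to 6.33 to 12.8 CPM in MC38, where 1 to 4 of 6 reached 1 CPM. Of 7 epithelial markers only 1 or 2 reached 1 CPM in an MC38 library, with a sum of 9.13 to 16.8 CPM, so the epithelial origin of the line is little seen in its transcripts. Leukocyte markers summed to 0.152 to 0.475 CPM, with Cd3e at 0 in every library.

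All 10 tubulin genes were detected in every library, and they spanned a wide range of levels. Levels of different genes are compared as CPM per kb of the longest coding transcript, since longer transcripts give more reads. In MC38, Tubb5 was highest with a median of 722 CPM per kb (range 703 to 744, 6 libraries). Tubb3 came next at 315 CPM per kb (307 to 328), then Tuba1b at 239 (234 to 245) and Tubb4b at 207 (202 to 210). Tuba1c at 188 CPM per kb (168 to 194) and Tuba1a at 160 (132 to 197) overlapped and could not be ordered. Tubb6 followed at 97.2 CPM per kb, Tuba4a at 24.9, Tubb2a at 6.07 and Tubb2b at 2.78, each apart from its neighbours in the order.

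In B16, Tubb5 was again highest with a median of 633 CPM per kb (range 544 to 691, 4 libraries). Tubb4b at 283 CPM per kb (247 to 294) and Tuba1b at 249 (229 to 306) overlapped, as did Tuba1c at 146 (136 to 160) and Tuba1a at 144 (133 to 149). Tubb3 lay below both at 123 CPM per kb (86.1 to 133), above Tubb6 at 38.9. Tubb2a at 16.4 CPM per kb (13.4 to 18.4) and Tuba4a at 13.05 (12.4 to 15.4) overlapped, and Tubb2b was lowest at 2.64. Tubb3 thus stood second of 10 in MC38 and below Tuba1a in B16, and Tubb2a stood below Tuba4a in MC38 and beside it in B16. Per kb, the beta genes summed to 2.10 to 2.37 times the alpha genes in MC38 and to 1.82 to 2.01 times in B16. The ranges of the lines do not overlap. The alpha sum is mostly Tuba1 genes, which share many windows, so the size of these ratios is uncertain.

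**Figure D1:**
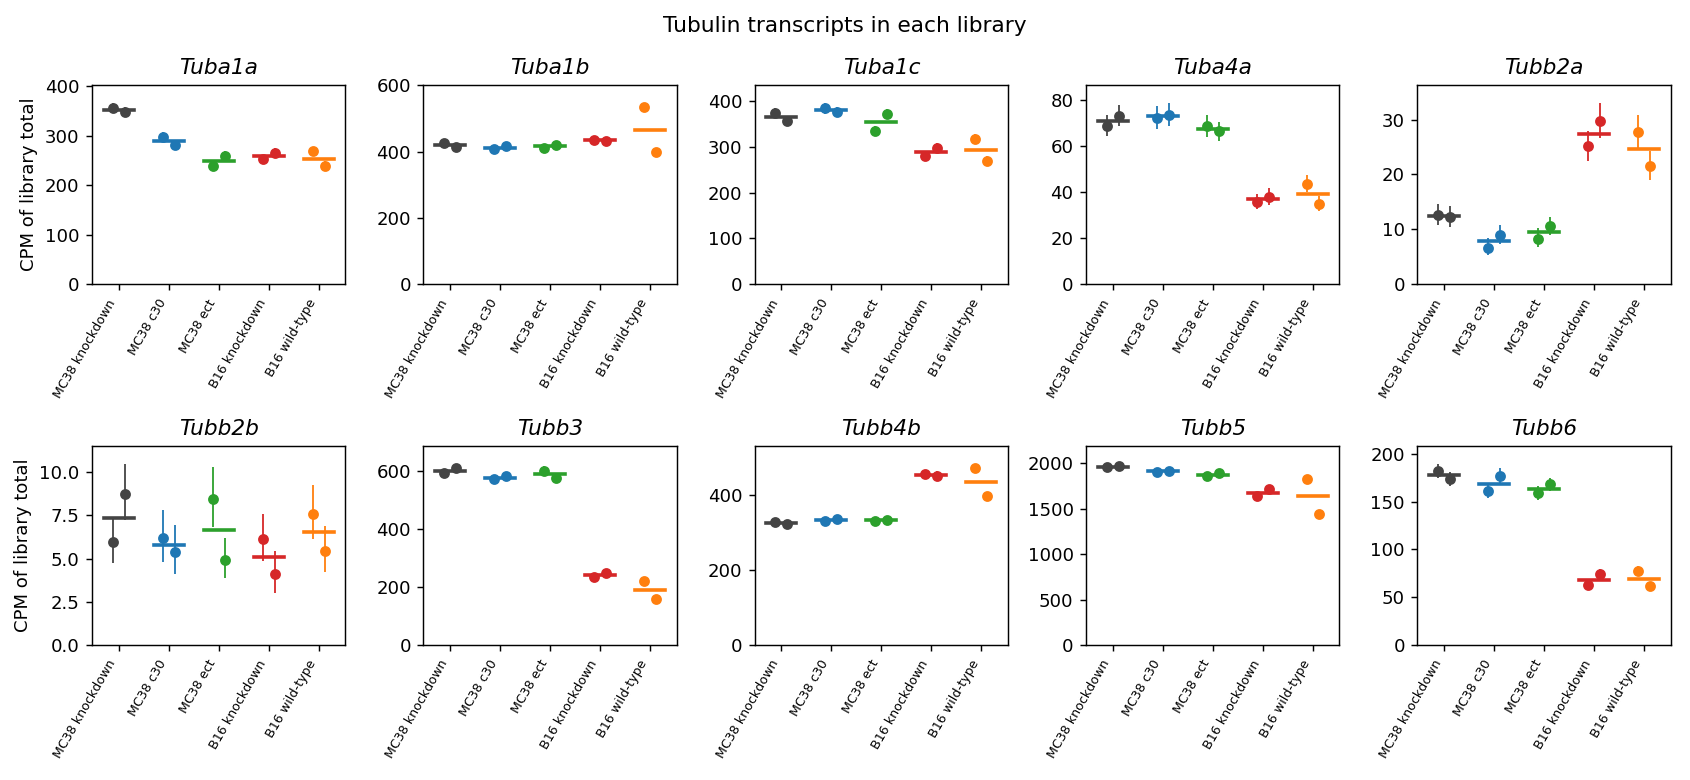
CPM of library total (vertical axis of each panel, starting at 0) for each of the 10 tubulin genes in the 5 groups; points are single libraries with their 95% exact Poisson interval, which covers counting error only, and bars are group means over 2 libraries. Tubb3, Tubb6 and Tuba4a are lower and Tubb4b and Tubb2a are higher in every B16 library than in every MC38 library, and Tuba1a steps down from the MC38 knockdown to c30 and to ect.

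The make-up of both families differed between the lines, with the widest gaps in Tubb3 and Tubb4b. Tubb5 held 52.8% to 54.0% of beta tubulin per kb in MC38 and 57.1% to 59.1% in B16. Tubb3 held 23.0% to 24.2% in MC38 and 9.28% to 11.8% in B16, whereas Tubb4b held 14.6% to 15.6% in MC38 and 25.1% to 26.7% in B16. Tubb6 made up 6.79% to 7.54% of the family in MC38 and 3.29% to 3.76% in B16. Tubb2a and Tubb2b together stayed a small part, with Tubb2a at 0.312% to 0.571% in MC38 and 1.44% to 1.64% in B16 and Tubb2b at 0.167% to 0.298% over all libraries. In the alpha family, Tuba1b held 37.4% to 42.1% in MC38 and 44.5% to 48.6% in B16, and Tuba4a held 3.71% to 4.31% and 2.32% to 2.44%. Within each family no share of 1 line overlapped that of the other except those of Tuba1a and Tubb2b. No such count was made over all genes, of which 68.2% were called between the knockdown groups of the lines, and nothing particular to tubulin genes is read from it. Shares in a family add up to the whole, so a share can be higher where the level is not. Tubb5 had a higher share in B16, though its level in the knockdown groups was lower (log2 fold change -0.19).

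**Figure D2:**
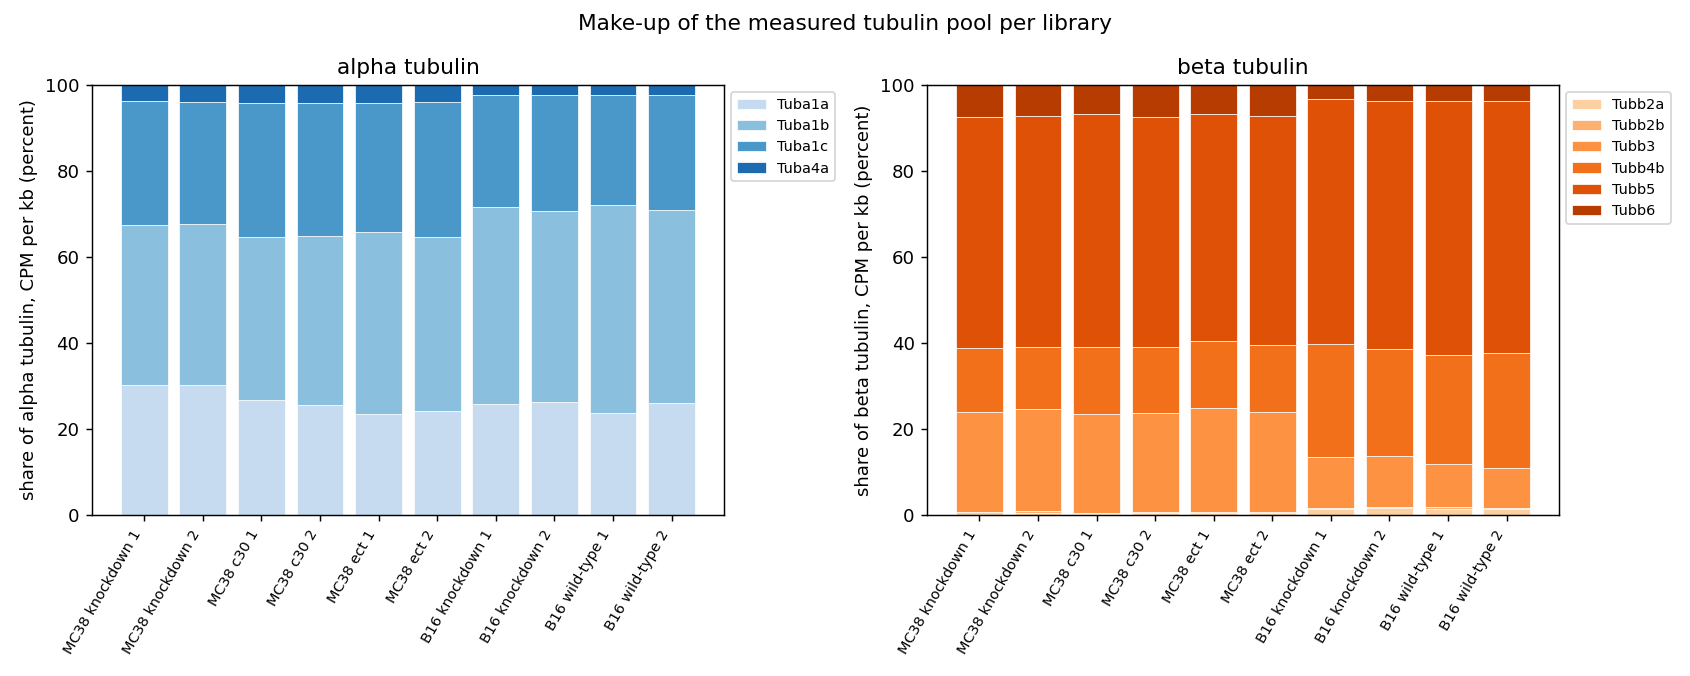
Share of each gene in the summed alpha (left) or beta (right) tubulin of a library, in percent of CPM per kb (vertical axis), for the 10 libraries. In the beta family the band of Tubb3 takes 23.0% to 24.2% in MC38 and 9.28% to 11.8% in B16, while the band of Tubb4b widens from at most 15.6% to at least 25.1%.

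In MC38, Tuba1a was the alpha gene that differed between the 3 groups. It stood at 356 and 348 CPM in the knockdown, at 298 and 281 CPM with c30 and at 239 and 260 CPM in the libraries labelled ect. The knockdown was highest, the libraries labelled ect were lowest, and no library of 1 group reached the range of another. Against the knockdown (352 ± 5.27 CPM, SD, n = 2), the level was 1.21-fold lower with c30 (289 ± 12.0 CPM, log2 fold change -0.28, SE 0.047). It was 1.40-fold lower in the libraries labelled ect (249 ± 15.1 CPM, log2 fold change -0.49, SE 0.047). Between c30 and ect the log2 fold change was 0.21 (SE 0.048).

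The other alpha genes moved little among the MC38 groups. Tuba1b stood at 427 and 415 CPM in the knockdown, at 407 and 418 CPM with c30 and at 412 and 421 CPM in the libraries labelled ect, and the 3 groups overlapped. Tuba1c stood at 374 and 357 CPM in the knockdown, at 384 and 375 CPM with c30 and at 334 and 373 CPM in the libraries labelled ect. The knockdown and ect libraries overlapped for Tuba1c, and c30 lay just above both. Tuba4a ranged from 66.6 to 73.7 CPM over the 6 MC38 libraries. Log2 fold changes against the knockdown were between -0.06 and 0.06 for Tuba1b, Tuba1c and Tuba4a in both comparisons, with SE of 0.044 to 0.068.

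Because the Tuba1 genes are near-identical, their counts were also summed. Tuba1a made up 30.8% and 31.1% of the sum in the knockdown, 27.3% and 26.1% with c30 and 24.2% and 24.7% in the libraries labelled ect. The sum stood at 1157 and 1120 CPM in the knockdown, at 1089 and 1074 CPM with c30 and at 985 and 1053 CPM in the libraries labelled ect, so the groups do not overlap. Its log2 fold change against the knockdown was -0.07 (SE 0.038) with c30, which did not pass an adjusted p of 0.05 in edgeR's quasi-likelihood test over all genes, and -0.15 (SE 0.038) in the libraries labelled ect, which did. The pseudogene rows beside the Tuba1 genes summed to 31.2 and 34.7 CPM in the knockdown, 38.2 and 35.1 CPM with c30 and 35.3 and 32.1 CPM with ect. The largest part was Gm3756, at 18.9 and 19.97 CPM in the knockdown. How reads with several matches were counted is not given, so the part of shared reads in the Tuba1a difference was not tested.

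**Figure D3:**
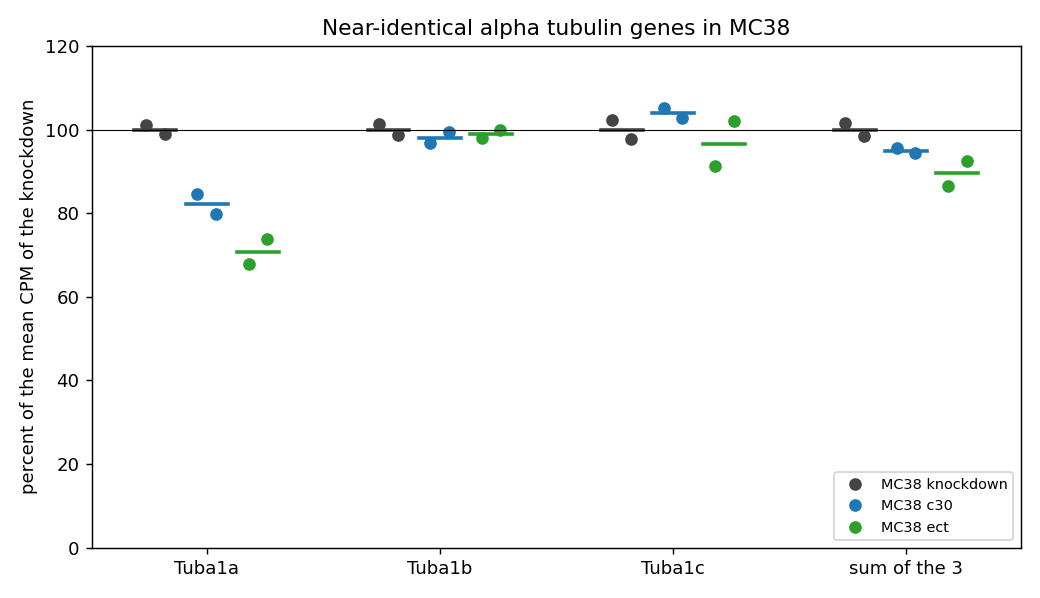
Level of Tuba1a, Tuba1b, Tuba1c and of their sum in the 6 MC38 libraries, in percent of the mean CPM of the knockdown (vertical axis); points are libraries and bars are means over 2 libraries. The 3 groups are apart for Tuba1a, with means of 352, 289 and 249 CPM, and overlap for Tuba1b.

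Among the beta genes in MC38, Tubb2a had the largest difference, at a low level. It stood at 12.6 and 12.2 CPM in the knockdown, at 6.70 and 8.97 CPM with c30 and at 8.34 and 10.6 CPM in the libraries labelled ect. Both knockdown libraries lay above the other 4, and c30 and ect overlapped. The level with c30 was 1.58-fold lower than in the knockdown (log2 fold change -0.66, SE 0.18), and that in the libraries labelled ect was 1.29-fold lower (log2 fold change -0.37, SE 0.17). Tubb2a rests on 76 to 174 counts per MC38 library, far fewer than Tuba1a with 2716 to 4903 counts. The sum of Tubb2a and Tubb2b differed from the knockdown by -0.53 (log2 fold change, SE 0.14) with c30 and by -0.29 (SE 0.13) in the libraries labelled ect.

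The abundant beta genes were close to level across the MC38 groups. Tubb5 stood at 1956 and 1971 CPM in the knockdown, at 1905 and 1919 CPM with c30 and at 1861 and 1890 CPM in the libraries labelled ect. These 3 groups did not overlap for Tubb5, yet the differences were small, with log2 fold changes against the knockdown of -0.03 and -0.05 (SE 0.035 in both). Tubb3 stood at 593 and 613 CPM in the knockdown, at 573 and 583 CPM with c30 and at 603 and 579 CPM in the libraries labelled ect. Tubb4b kept within 323 to 335 CPM over the 6 libraries and Tubb6 within 159 to 182 CPM. Tubb2b, at 4.92 to 8.74 CPM on 62 to 116 counts, varied as much within groups as between them.

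A gene counts as called where its adjusted p (edgeR's quasi-likelihood test, Benjamini-Hochberg over all genes tested) lies under 0.05. For c30 against the knockdown, 2 of 10 tubulin genes were called, Tuba1a and Tubb2a, both lower, and 7.75% of the 15031 genes tested were called (3.3% higher and 4.45% lower). For the libraries labelled ect against the knockdown, 1 tubulin gene was called, Tuba1a, which was lower, and 8.16% of all genes were called (3.55% higher and 4.61% lower). For c30 against ect, 1 was called, Tuba1a, which was higher with c30, and 0.299% of all genes were called (0.133% higher and 0.166% lower). The list was chosen with these contrasts known, so nothing is read from these shares, and both comparisons with the knockdown use the same 2 knockdown libraries. The median log2 fold change of the 10 genes was -0.04 with c30 and -0.06 with ect, beside 0.00 for all genes in both.

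The calls differ in how much they rest on single libraries. All these fits reuse the libraries on which the list was chosen, so they give no separate evidence for a call. Tuba1a was called against the knockdown with c30 and with ect under each of the alternatives that left the Tuba1 genes unsummed, including each library left out. The call of Tubb2a with c30 was lost without knockdown replicate 1, without c30 replicate 1 (log2 fold change -0.46), with all 10 libraries in 1 fit and with DESeq2. The call of Tuba1a between c30 and ect was lost without c30 replicate 1, without c30 replicate 2, without ect replicate 1, with all 10 libraries in 1 fit, and with DESeq2 and limma-voom, with log2 fold changes of 0.16 to 0.24 in these fits.

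Other values also stood highest in the MC38 knockdown. The summed endothelial and stromal markers stood at 141 and 150 CPM in the knockdown, at 104 and 112 CPM with c30 and at 107 and 101 CPM in the libraries labelled ect. The c30 and ect libraries overlapped for this sum, which they did not for Tuba1a. In each library 3 or 4 of 5 markers stood at 1 CPM or more. Pdgfrb, a receptor of mesenchymal cells, was the largest part, at 91.1 and 97.7 CPM in the knockdown and 66.3 to 74.6 CPM in the other 4 libraries. Pdgfra, a related receptor, stood at 46.3 and 48.7 CPM in the knockdown and at 30.6 to 34.6 CPM in the other 4. The epithelial sum also stood higher in the knockdown, at 16.8 and 16.4 CPM, than with c30 (13.3 and 10.0 CPM) or with ect (9.13 and 9.97 CPM). Its largest part was the single gene Cdh1, at 5.53 to 13.9 CPM over the MC38 libraries. The part of these markers in the Tuba1a result was not tested. In bulk RNA, fewer cells of a kind and less RNA per cell cannot be told apart.

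In B16, the wild-type form and the knockdown gave overlapping levels for 9 of 10 tubulin genes, and Tubb3 was the exception. Of all 14336 genes tested, 35.1% had groups that did not overlap. Tubb3 stood at 237 and 248 CPM in the knockdown and at 222 and 161 CPM with the wild-type form, so that both wild-type libraries lay below the knockdown but far from each other. Its log2 fold change was -0.31 (SE 0.12). Tuba1a, at 253 and 265 CPM in the knockdown and 268 and 240 CPM with the wild-type form, had a log2 fold change of 0.00 (SE 0.085). All 4 B16 libraries lay below every MC38 library with the knockdown alone or with c30 for Tuba1a, and they overlapped the MC38 libraries labelled ect.

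The 2 B16 wild-type libraries stood apart from each other for most tubulin genes. Replicate 2 was the lowest of the 4 B16 libraries for 9 of 10 genes, all but Tubb2b, and took 0.303% of its counts from tubulin genes, against 0.380% in replicate 1. The share of all genes that were lowest in this library was not computed, so nothing particular to tubulin genes is read from this count. Tubb5, for example, stood at 1638 and 1718 CPM in the knockdown and at 1831 and 1440 CPM with the wild-type form. Tuba1b stood at 435 and 434 CPM in the knockdown and at 534 and 399 CPM with the wild-type form. No tubulin gene was called by edgeR's quasi-likelihood test, by DESeq2 or by limma-voom, and 1 gene, Tubb3, had an unadjusted p under 0.05 in edgeR. Of all 14336 genes 0% were called by edgeR, with 791 at an unadjusted p under 0.05, 10 called by DESeq2 and 0 by limma-voom. Without wild-type replicate 1, Tubb3 (log2 fold change -0.56) and Tubb5 (-0.19) were called lower, and without wild-type replicate 2, Tuba1b was called higher (0.32), so the B16 values depend on which of these libraries is kept.

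Between the lines, compared in their knockdown groups, the B16 cells had less Tubb3, Tubb6 and Tuba4a and more Tubb2a and Tubb4b. The difference cannot be told apart from anything else that differed between the cultures of the lines. Tubb6 stood at 62.6 and 74.2 CPM in B16 against 182 and 174 CPM in MC38, 2.54-fold lower (log2 fold change -1.34, SE 0.091). Tubb3 stood at 237 and 248 CPM against 593 and 613 CPM, 2.42-fold lower (log2 fold change -1.27, SE 0.10). Tuba4a stood at 35.9 and 38.2 CPM against 69.0 and 73.3 CPM, 1.87-fold lower (log2 fold change -0.90, SE 0.097). For all 3 genes, every B16 library, also those with the wild-type form, lay below every MC38 library. The share of all genes separated in this way was not computed. Since 68.2% of all genes were called between the lines, nothing particular to these genes is read from the separation.

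Tubb2a stood at 25.1 and 29.7 CPM in the B16 knockdown against 12.6 and 12.2 CPM in the MC38 knockdown, 2.26-fold higher (log2 fold change 1.18, SE 0.16). Its near-identical partner Tubb2b did not share this direction, at 6.11 and 4.09 CPM against 5.95 and 8.74 CPM, and the lines overlapped. Tubb4b stood at 455 and 451 CPM against 327 and 323 CPM, 1.43-fold higher (log2 fold change 0.52, SE 0.070). Tubb4b and Tubb2a lay higher in every B16 library than in every MC38 library, from which again nothing particular to them is read.

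The remaining differences between the lines were smaller. Tuba1a was 1.32-fold lower in the B16 knockdown (log2 fold change -0.40, SE 0.067) and Tuba1c 1.23-fold lower (-0.30, SE 0.072). Tubb5 was 1.14-fold lower (-0.19, SE 0.075). For Tuba1b the log2 fold change was 0.09 (SE 0.091), and for the sum of Tuba1a, Tuba1b and Tuba1c it was -0.17 (SE 0.072), which was called. With their annotated pseudogenes added, the sum differed by -0.16 and was not called. In this comparison 8 of 10 tubulin genes were called, 2 higher and 6 lower in B16, and Tuba1b and Tubb2b were not. Of the 16877 genes tested, 68.2% were called (33.8% higher and 34.3% lower). The list was chosen with this contrast known, and nothing is read from its share. The median log2 fold change of the 10 genes was -0.35, beside -0.01 for all genes. The call of Tubb5 was lost in 6 of the 10 fits that left out 1 library, with a log2 fold change of -0.17 to -0.20.

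**Figure D4:**
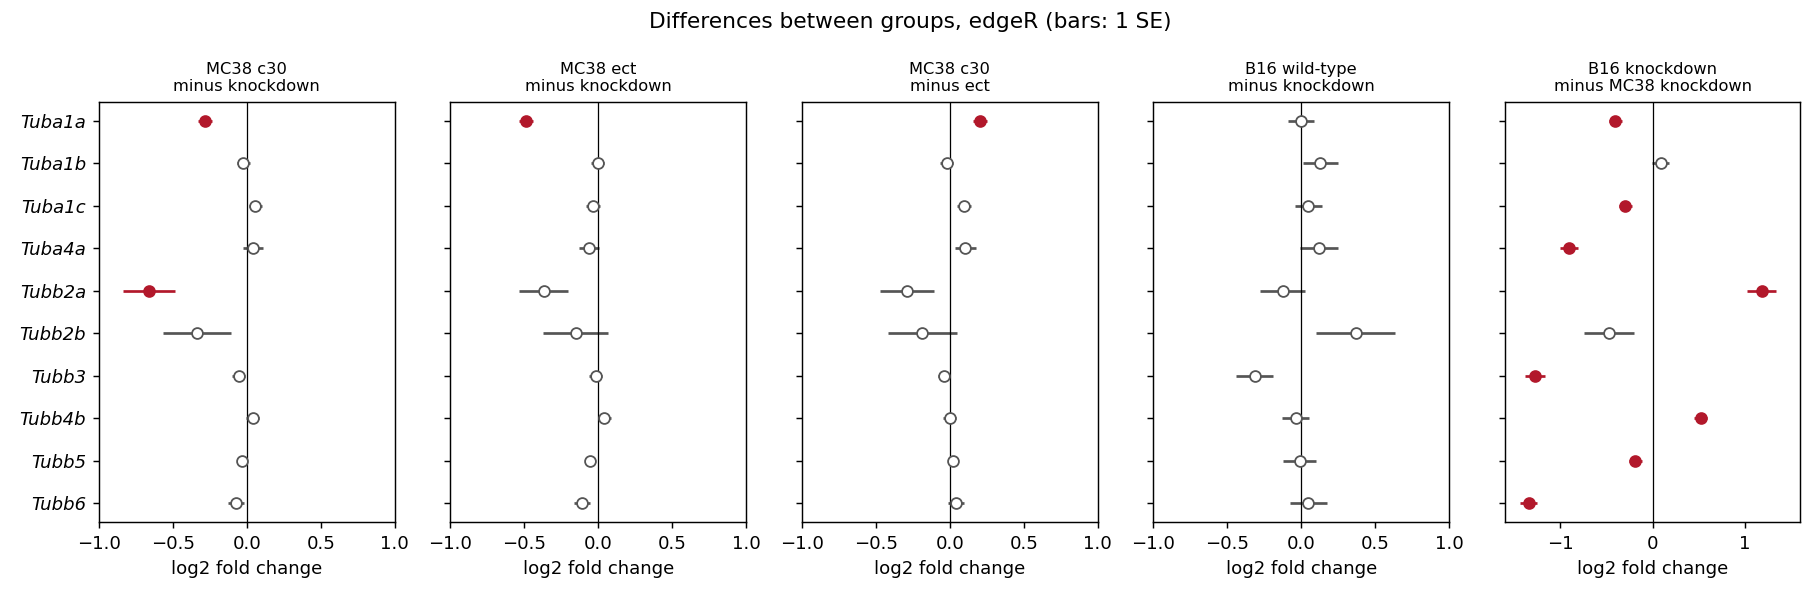
Log2 fold change (horizontal axis, with a wider scale in the comparison of the lines) of the 10 tubulin genes in the 5 comparisons, from edgeR fits over all genes; bars are 1 SE and filled points were called. The differences between the lines reach -1.34 in Tubb6 and 1.18 in Tubb2a, whereas within MC38 the called values are those of Tuba1a in 3 comparisons and of Tubb2a in c30 against the knockdown.

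The other tubulin genes set off the list at its lower edge. Tubb2b, the lowest of the 10, stood at 4.09 to 8.74 CPM, and Tubb4a, in MC38 the highest alpha or beta tubulin gene outside the list, at 1.197 to 3.83 CPM over all libraries. Tuba3a and Tuba3b had no count in any library, which in a library allows up to 0.264 CPM, the value of 3 counts in the smallest library. Tubal3 and Tubb1 stayed at or below 0.151 CPM. Tuba8 stood at 0 to 0.348 CPM in MC38, on at most 4 counts, and at 0.950 to 1.65 CPM in B16, where it overlapped Tubb4a.

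Of the tubulins that are not part of the microtubule wall, Tubg1, Tubg2 and Tubd1 were higher in B16. Tubg1, the main gamma tubulin, which starts new microtubules at centrosomes, stood at 76.3 to 82.2 CPM in MC38 and at 111 to 133 CPM in B16 (log2 fold change between the knockdown groups 0.68, SE 0.080, edgeR adjusted p = 1.8e-08). Tubg2, its paralogue, stood at 0.435 to 1.05 CPM in MC38 and at 12.1 to 13.6 CPM in B16 (log2 fold change 3.87, SE 0.27, edgeR adjusted p = 8.2e-13). Tubd1, delta tubulin of the centriole, stood at 5.83 to 10.7 CPM in MC38 and at 19.4 to 23.4 CPM in B16 (log2 fold change 1.36, edgeR adjusted p = 2.5e-07). Tube1, epsilon tubulin, stood at 16.7 to 20.8 CPM in MC38 and at 14.01 to 16.4 CPM in B16 and was not called. Of the 10 other tubulins, 6 were tested between the lines, 4 were higher in B16 and none was lower, beside 33.8% of all genes called higher and 34.3% called lower, and nothing particular to them is read from this. Within MC38 and within B16 none was called by edgeR, DESeq2 or limma-voom, and at an unadjusted p under 0.05 in edgeR there was 1, in ect against the knockdown.

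Of the tubulin folding genes, some were called higher than the knockdown in MC38, mostly in the libraries labelled ect. The lists were chosen with these data known, and nothing particular to them is read from their counts. Prefoldin and the CCT chaperonin hand over and fold new tubulin chains, and actin too. With ect, 6 of their 14 genes rose and none fell, with a median log2 fold change of 0.13 beside 0.00 for all genes, of which 3.55% were called higher. DESeq2 called 5 and limma-voom 6 of them, and leaving out 1 library gave 2 to 7, with 2 without either ect library and 3 without knockdown replicate 2. In these 6 fits Pfdn2 was called in 6, Pfdn1, Cct7 and Cct8 in 4 each, Tcp1 in 2 and Cct3 in 0. Pfdn2, a prefoldin subunit, stood at 36.9 and 44.9 CPM in the knockdown and at 60.2 and 59.2 CPM in the libraries labelled ect (log2 fold change 0.56, SE 0.085, edgeR adjusted p = 9.6e-07). Cct8, a chaperonin subunit, stood at 572 and 558 CPM in the knockdown and at 624 and 632 CPM in the libraries labelled ect (log2 fold change 0.16, SE 0.041, edgeR adjusted p = 0.0040). Leaving out any 1 library kept the call of Pfdn2, and that of Cct8 was lost without either ect library (edgeR adjusted p = 0.051 in both). With c30, 2 of the 14 rose and none fell, beside 3.3% of all genes called higher, and DESeq2 called 1. The 2 were Cct3 and Cct4, with a log2 fold change of 0.16 each, and the median over the list was 0.11. Both were lost without c30 replicate 1 and without c30 replicate 2, and Cct4 also without knockdown replicate 2. Of the 7 tubulin folding cofactors, which join the folded chains into dimers, none was called in either comparison, also at an unadjusted p under 0.05 in edgeR and by DESeq2 and limma-voom.

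Of the genes that act on the tubulin polymer, some were called in MC38, and nothing particular to them is read from their counts. Dclk1, a microtubule-binding kinase, stood at 104 and 113 CPM in the knockdown and fell to 85.9 and 79.5 CPM with c30 (log2 fold change -0.39, SE 0.062, edgeR adjusted p = 2.4e-06). Map4, the widely expressed microtubule-associated protein, stood at 288 and 291 CPM in the knockdown and fell to 241 and 252 CPM in the libraries labelled ect (log2 fold change -0.22, SE 0.047, edgeR adjusted p = 0.00064). Both of these calls stood without each library in turn. Map4 also fell with c30 (log2 fold change -0.15), a call lost without either c30 library and without knockdown replicate 2. Map6, a microtubule stabiliser, fell with ect (-0.25, SE 0.068), a call lost without knockdown replicate 1 and without ect replicate 1. Dclk1 was also called with ect (-0.21, SE 0.060), which was lost without knockdown replicate 2 and without ect replicate 2. In all, 2 of 17 tested lattice and end binding proteins fell with c30 and 3 of 17 with ect, and none rose, beside 4.45% and 4.61% of all genes called lower. DESeq2 called 1 of them in each comparison.

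Among 17 tested tubulin modifying enzymes, 2 rose with c30, beside 3.3% of all genes called higher, and DESeq2 called 1. None was called with ect by edgeR, DESeq2 or limma-voom, and 1 had an unadjusted p under 0.05 in edgeR. Hdac6, which removes acetyl groups from alpha tubulin, stood at 34.6 and 32.8 CPM in the knockdown and rose to 44.8 and 46.1 CPM with c30 (log2 fold change 0.44, SE 0.093, edgeR adjusted p = 0.00061). Ttll4, which adds glutamates to tubulin tails and to other proteins, had a log2 fold change of 0.16 with c30 (edgeR adjusted p = 0.030). The call of Hdac6 stood without each library in turn, and that of Ttll4 was lost without either c30 library and without knockdown replicate 1. Of the 2 genes listed for tubulin mRNA autoregulation, Scaper stood at 22.1 and 22.4 CPM in the knockdown and fell to 17.1 and 16.4 CPM with c30 (log2 fold change -0.41, SE 0.12, edgeR adjusted p = 0.027), a call lost without any 1 of the 4 libraries compared. Ttc5, which recognises the nascent tubulin chain, was not called in any MC38 comparison.

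Of the 13 genes of the spindle and cell division list, 1 was called with c30 and 2 with ect. Of all genes, 7.75% were called with c30 (4.45% lower) and 8.16% with ect (4.61% lower). Nothing particular to the list is read from its counts. Mki67, a marker of dividing cells, stood at 1120 and 1192 CPM in the knockdown, at 1008 and 995 CPM with c30 and at 952 and 892 CPM in the libraries labelled ect, lower in both by edgeR (log2 fold changes -0.20 and -0.31). It was the 1 gene of 13 called with c30, and Kif15, a spindle motor, was the other of the 2 called with ect (log2 fold change -0.23), lost without ect replicate 1. The call of Mki67 stood in both comparisons without each library in turn. No gene of the gamma-tubulin ring complex and nucleation list or of the destabilising and severing proteins was called against the knockdown, where edgeR's unadjusted p was under 0.05 for 0 and 1 genes with c30 and for 3 and 2 genes with ect. Between c30 and ect no gene of the 9 lists was called by edgeR, DESeq2 or limma-voom, with 0 to 3 genes of a list at an unadjusted p under 0.05. The same held in B16 for the wild-type form against the knockdown, again with 0 to 3 genes of a list at an unadjusted p under 0.05.

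Map6 and Map1a, named for the smallest adjusted p of their list, had larger log2 fold changes between the lines than any of the 10 tubulin genes. They were not the only genes of the list to differ widely. The median over the lattice and end binding proteins was 0.09, beside -0.01 for all genes. Map6 stood at 61.9 to 78.8 CPM in MC38 and at 1.57 to 3.01 CPM in B16 (log2 fold change of the knockdown groups -5.34, SE 0.16, edgeR adjusted p = 1.4e-21). Map1a, a neuronal microtubule-associated protein, stood at 56.7 to 67.2 CPM in MC38 and at 1.45 to 4.04 CPM in B16 (log2 fold change -5.01, SE 0.17, edgeR adjusted p = 2.8e-20). Map2, the dendritic protein, had 0 to 3 counts in an MC38 library and stood at 16.7 to 21.5 CPM in B16. Mapt stood at 4.23 to 6.24 CPM in MC38 and at 29.2 to 34.0 CPM in B16. Map1b stood at 324 to 369 CPM in MC38 and at 70.8 to 91.6 CPM in B16. The 7 neuronal markers summed to 16.9 to 21.5 CPM in B16, nearly all of it Map2, and to 0 to 3.48 CPM in MC38, the line with more Tubb3. Of 19 tested lattice and end binding proteins, 9 were higher and 6 lower in B16.

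The enzymes and complexes that act on tubulin also differed between the lines. Vash2, which removes the C-terminal tyrosine of alpha tubulin, stood at 46.7 to 54.6 CPM in MC38 and at 6.57 to 7.74 CPM in B16 (log2 fold change -2.81, SE 0.13, edgeR adjusted p = 6.9e-17). Ttl, the ligase that puts that tyrosine back, was lower too (log2 fold change -1.14, SE 0.11, edgeR adjusted p = 5.0e-10). Of 18 tested modifying enzymes, 5 were higher and 6 lower in B16. Fign, an ATPase of the microtubule-severing family, stood at 1.93 to 3.92 CPM in MC38 and at 20.02 to 25.1 CPM in B16 (difference on the log2 scale 3.06, SE 0.23, edgeR adjusted p = 2.1e-12). Kif2c, a kinesin that takes microtubule ends apart, was lower (-0.75, SE 0.071, edgeR adjusted p = 3.5e-10). Of 11 tested destabilising and severing proteins, 2 were higher and 7 lower.

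Of 11 genes of the gamma-tubulin ring complex and of microtubule nucleation, 6 were lower in B16 and none was higher, although Tubg1 was higher. The 6 were the ring complex subunits Tubgcp2, Tubgcp3 and Tubgcp4, and Ckap5, Pcnt and Nedd1, which are not subunits of it. For Tubgcp2 the log2 fold change was -0.51 (SE 0.089, edgeR adjusted p = 1.4e-05). For Nedd1, which brings the complex to the centrosome and spindle, it was -0.44 (SE 0.094, edgeR adjusted p = 0.00015). The folding genes went both ways, with 6 of 14 prefoldin and chaperonin genes higher and 3 lower, and 2 of 7 cofactors higher and 1 lower. Cct7, a chaperonin subunit, was higher in B16 by 0.85 on the log2 scale (SE 0.063, edgeR adjusted p = 1.9e-12). Arl2, a small GTPase that works with the cofactors, was lower (-0.83, SE 0.093, edgeR adjusted p = 9.3e-09). Ttc5 was higher (0.67, SE 0.11, edgeR adjusted p = 3.1e-06). On the spindle list 3 of 13 genes were higher and 7 lower, with Mki67 at 892 to 1192 CPM in MC38 and 607 to 672 CPM in B16. Against the 68.2% of all genes called between the lines, no count of these lists is read as particular to it.

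Over the 6 MC38 libraries, the genes whose log2 CPM most resembled that of Tuba1a were Prrx1 (Pearson's r 0.997) and Anxa5 (r 0.995), out of 10555 genes with a mean of at least 5 CPM. Prrx1 stood at 195 and 194 CPM in the knockdown, at 185 and 182 CPM with c30 and at 170 and 177 CPM in the libraries labelled ect, and at most at 0.633 CPM in B16. For Tubb2a they were Sgk3 and Smad2 (r 0.989 for both). These values describe 6 points in 3 groups that share their libraries, and they were picked as the highest of many.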

How the data were processed

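Total RNA was made into messenger RNA libraries and sequenced from both ends, per the labels' protocols. The authors deposited raw counts per gene, whole numbers whose totals differ between libraries. The submitters' processing notes name Trimmomatic, HISAT2 2.0.5, featureCounts, HTSeq and DESeq2, on build GRCm39; their order, the annotation, the strand setting and the treatment of reads with several matches are not given in the sources used here. Symbols, transcript lengths and coding sequences came from GENCODE M21 on GRCm38, so no coordinates are printed.

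The test was the robust quasi-likelihood F test of edgeR 4.0.16 under R 4.3.3 (TMM scaling, filterByExpr, 2-sided), in 1 fit of the 6 MC38 libraries, 1 of the 4 B16 libraries and 1 of all 10 for the comparison of the lines. It was also run on simulated data with known changes, from which nothing is read here. Those data had the same spread for all genes and no outlying library. They do not cover the B16 wild-type libraries, which stood apart from each other. The common biological coefficient of variation was 4.84%, 8.68% and 6.65%. Single-library values and group means ± SD in CPM use library totals; SE come from the fits. Intervals are exact Poisson intervals at the 95% level, and they and the floor of 3 counts cover counting error only.

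The tubulin genes, the 9 pathway lists and the marker lists were chosen with earlier results of these data known. Besides the 10 genes and Sdc1, up to 2 called genes per list and comparison with the smallest adjusted p were named. The other tubulins were named too, and the 2 genes most like each tubulin gene called in MC38. Pdgfra, Pdgfrb, Cdh1, Map2, Mapt and Map1b were added after seeing them. So were further called genes of the folding and nucleation lists, and further values of Dclk1, Map4, Map6, Mki67, Tubd1 and Ttc5. Alternatives were RLE scaling, 2 other filters, DESeq2 1.42.0, limma-voom (limma 3.58.1), replicate number as a block, other sets of libraries, each library left out, summed paralogues and other lengths. Summing with pseudogenes, and the pathway lists without single libraries, were added after seeing the data.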

Additional observations from a re-analysis of the deposited data

How the results depend on the processing

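Of 800 recomputed log2 fold changes of tubulin genes, 726 moved by less than the spread between replicates and 73 moved further. The remaining 1 was the only turn of sign in a gene called in the main fit. It was Tubb4b between the lines, which came to -0.062 when summed with Tubb5, whose counts are the larger part of that sum. Turns of sign in genes not called were not counted apart and lie within the 726 and the 73. Tubb2b between the lines, for example, went from -0.47 to 0.76 when summed with Tubb2a. All genes called, and in brackets tubulin genes called, came to the following. DESeq2 gave 519 (1) for c30 against the knockdown, 596 for ect against the knockdown, 15 (0) for c30 against ect and 10 in B16. All 10 libraries in 1 fit gave 254 (1), of which 25.2% were higher against 42.6% in the fit of 6 libraries, then 249 (26.1% higher against 43.5%), 8 (0) and 27. Limma-voom called 0 tubulin genes for c30 against ect. Only the 4 libraries compared gave 72 there, and no filter on low counts gave 42 in B16. Leaving out 1 library at a time gave 464 to 1245 (1 to 2) for c30, 776 to 1080 (1) for ect, 18 to 97 (0 to 1) for c30 against ect, 3 to 1295 (0 to 2) in B16 and 10539 to 12440 (7 to 9) between the lines; where this left a group with 1 library, that library was assumed to vary like the others. In B16 the count was 1295 without wild-type replicate 1 and 326 without wild-type replicate 2. The other causes were not tested. Dividing by another length moved shares within a family by up to 10.5 percentage points (Tubb5 in B16, counts not divided by length).

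Replicate numbers are shared by the groups, and the deviations of same-numbered libraries correlated at 0.077, -0.022 and 0.041 in MC38 and at -0.040 in B16. The labels do not say whether same-numbered libraries share a culture or a batch. These correlations do not settle it, since counting error alone also lowers them. With replicate number as a block, 1189 genes were called for c30, 1252 for ect, 55 for c30 against ect, 15 in B16 and 11373 between the lines, and tubulin genes called were 2, 1, 1, 0 and 8. Depth limits Tubb2a and Tubb2b most, with 76 to 350 and 47 to 116 counts per library.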
